A study of Mus musculus with 2 samples.

Results

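Cyclins are the regulatory subunits that switch on cyclin-dependent kinases (CDKs), and 10 such genes were followed here in CD8+ T cells, the killer lymphocytes, of mouse lymph node. They are the cyclins Ccnd2, Ccnd3, Ccne1, Ccne2, Ccna2, Ccnb1 and Ccnb2 and the kinases Cdk1, Cdk4 and Cdk6, chosen by symbol from the 32285 genes of the deposited matrices, and all 10 were found. The study concerns electrical stimulation of such cells through their matrix, and it holds 2 single-cell libraries, titled NC and HC, with 1 library in each group. The labels neither spell out these names nor say which library was stimulated, and they give no strain, age, number of mice, dose or duration, so the libraries are named by their titles. With no replicate, no test between them was possible, and every interval below is at 95% and covers counting error only.

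In the textbook cycle, D-type cyclins bind Cdk4 and Cdk6 and are induced by antigen and cytokine signals while a T cell is still in G1. E-type cyclins act at the entry to DNA synthesis, the A-type cyclin Ccna2 during synthesis and G2, and the B-type cyclins with Cdk1 at mitosis. CD8+ T cells that meet antigen divide fast, and their cyclin transcripts then come from cells in all of these phases.

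Values are UMIs, molecular tags counted once per RNA captured. A level is given as CPM, the UMIs of a gene per 1000000 UMIs summed over the kept cells of a library or class. The method tags 3′ ends, so CPM were not divided by gene length, and capture may differ between genes. A cell was kept if it showed 500 or more genes and 1000 or more UMIs, of which mitochondrial transcripts made up no more than 10%. The 13641 NC cells left were at 6898 UMIs in the median and the 13617 HC cells at 7425 UMIs. In all, 115789139 NC and 114430972 HC UMIs entered, so that a count of 0 would allow up to 0.0259 CPM in NC and 0.0262 CPM in HC. The CD8 T cell markers summed to 3182 CPM in NC and 2759 CPM in HC, with none of the 5 at 0, and Cd4 had 1 and 2 UMIs. B cell markers summed to 35.4 and 16.5 CPM with none of the 5 at 0, and the 4 macrophage and monocyte markers to 3.63 and 0.00874 CPM, with 1 at 0 in NC and 3 at 0 in HC. The part of other cell types in the results was not tested. Among the alternatives of the closing section, 1 left out cells with at least 2 UMIs of these or of NK, dendritic, erythroid, endothelial or fibroblast markers. The endothelial marker Pecam1 was in 27.9% of NC and 27.1% of HC cells, while Cdh5, the other, had 2 and 1 UMIs. The cells left out there are thus not shown to be of other types.

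Cells were classed by the presence of at least 1 UMI of Mki67, whose protein marks cells in cycle, and of Bnip3, a mitophagy gene known to be induced by low oxygen. Mki67 had 357 CPM in NC against 522 CPM in HC, and was found in 7285 NC cells (53.4%) and 9425 HC cells (69.2%). Bnip3 had 9.11 CPM in NC against 43.3 CPM in HC, and was found in 944 NC cells (6.92%) and 2962 HC cells (21.8%). Cells with a UMI of either gene were also the deeper ones. The median was 9367 UMIs in Mki67+ against 5703 in Mki67- NC cells, and 8774 against 5172.5 in HC. It was 10378.5 in Bnip3+ against 6737 in Bnip3- NC cells, and 9590 against 6909 in HC. For shares of cells, each cell was therefore thinned to 2000 UMIs. Shallower cells, 133 in NC and 94 in HC, were left out of them.

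All 10 genes were detected, over a wide range of levels. In NC the order was Ccnd2, Cdk4, Ccnd3, Cdk1, Ccnb2, Ccna2, Ccnb1, Ccne1, Cdk6 and Ccne2, from 281 CPM (278 to 284) down to 10.4 CPM (9.861 to 11.05). Only Ccnb2 at 115 CPM (113 to 117) and Ccna2 at 115 CPM (113 to 117) had overlapping intervals among neighbours in NC. In HC Ccnb2 moved up to the third place and the order ran Ccnd2, Cdk4, Ccnb2, Ccnd3, Cdk1, Ccna2, Ccnb1, Ccne1, Cdk6 and Ccne2, from 227 CPM (225 to 230) to 11.7 CPM (11.1 to 12.4). Cdk4 and Ccnb2 overlapped there, as did Cdk1 and Ccna2.

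**Figure D1:**
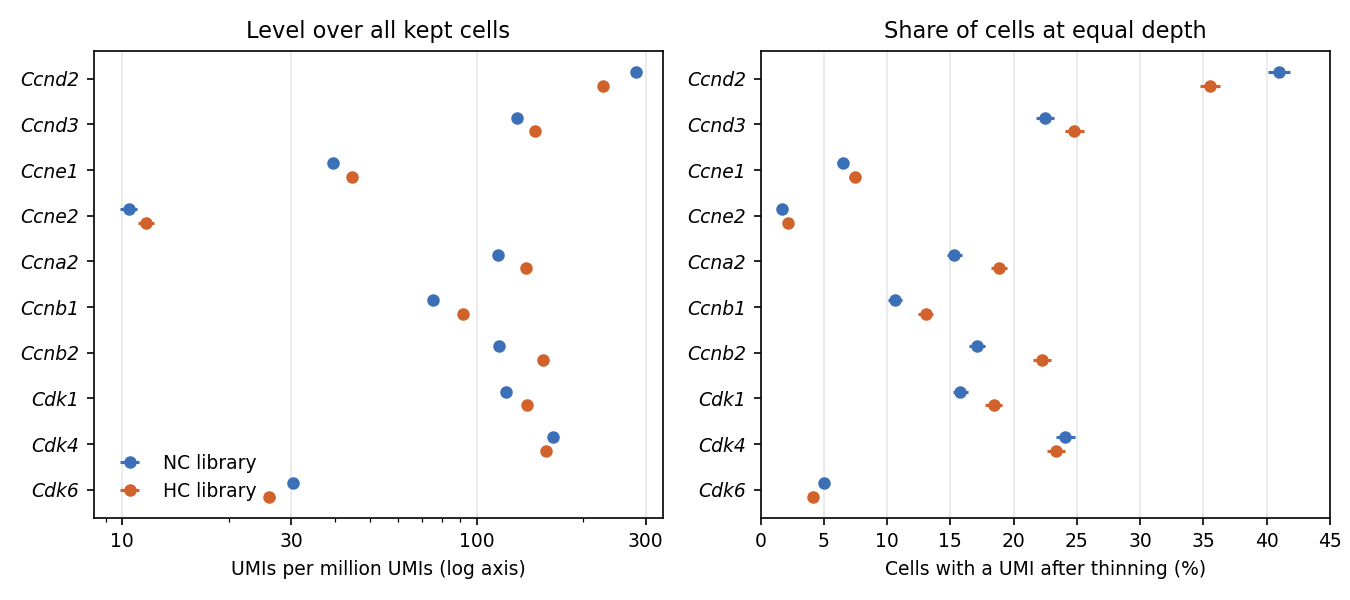
Level of each gene in CPM on a log axis (left) and share of cells with a UMI after thinning to 2000 UMIs (right), with 95% intervals for counting error; blue is the NC library and orange the HC library. Ccnd2 was the highest in both libraries, at 281 and 227 CPM, and Ccne2 the lowest.

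Against NC, the HC library held fewer transcripts of Ccnd2 and Cdk6 and more of the A- and B-type cyclins, but none of the 10 genes differed by 1.5-fold. Of the 8704 genes that reached 5 CPM in 1 library or both, 3.4% differed by that much, 1.93% being higher and 1.47% lower in HC. The log2 ratios of HC over NC had a median of 0.17 over the 10 genes and -0.03 over all 8704. The largest of the 10 was that of Ccnb2, at 115 CPM in NC against 153 CPM in HC, a log2 ratio of 0.41 (0.38 to 0.44). Ccnb1 followed at 0.28 (0.24 to 0.32), Ccna2 at 0.26 (0.23 to 0.30) and Cdk1 at 0.19 (0.16 to 0.23). Ccne1 and Ccne2 were at 0.18 and 0.16, and Cdk4 at -0.06 (-0.09 to -0.03).

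The balance among the cyclin types differed as well. Of the UMIs of the 7 cyclins, D-type cyclins made up 53.6% in NC and 46.0% in HC, and E-type cyclins 6.52% and 6.93%. Ccna2 made up 15.0% in NC and 16.9% in HC, and B-type cyclins 24.9% and 30.1%. The A- and B-type share was thus 7.22 points higher in HC (6.76 to 7.67). It was 2.04 points higher within Mki67+ cells and 2.54 points higher within Mki67- cells, and 3.08 points higher when the HC cells were weighted to the NC mix of the 4 Mki67 and Bnip3 classes. Of the A and B types, only the B-type share was higher in HC within Mki67+ cells (2.14 points) and within Mki67- cells (3.09 points). The HC minus NC difference for Ccna2 was -0.10 points (-0.52 to 0.31) and -0.55 points (-0.92 to -0.17).

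**Figure D2:**
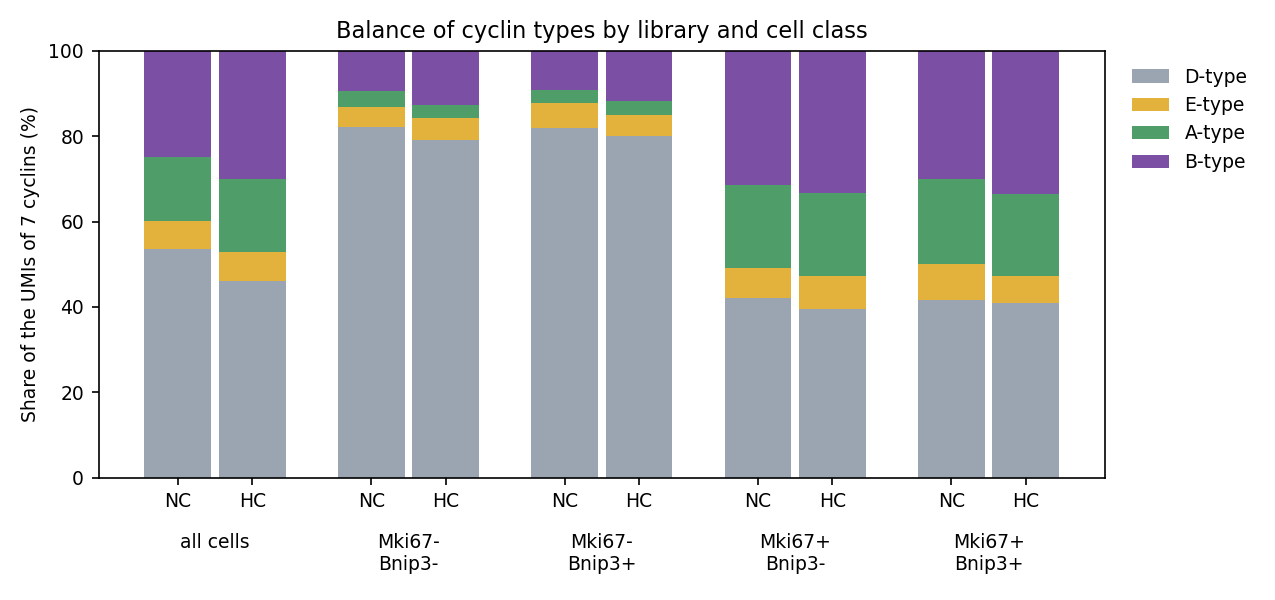
Share of the UMIs of the 7 cyclins taken by the D, E, A and B types (stacked to 100%), for all cells and for the 4 classes by presence of Mki67 and Bnip3, in the NC and the HC library. D-type cyclins fill most of the bar in Mki67- cells, 82.2% in NC and 79.2% in HC over Bnip3 classes, and less than the other types together in Mki67+ cells, 42.0% and 39.97%.

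These differences between the libraries varied with the depth of the cells. Among cells with 5000 to 10000 UMIs, a range set after the data were seen, 69.9% of 6960 HC cells had an Mki67 UMI against 42.1% of 6291 NC cells. In that range 5 of the 10 genes were at least 1.5-fold higher in HC, where 5.91% of 8721 genes were. They were Ccne2 (log2 ratio 0.71), Ccna2 (0.83), Ccnb1 (0.67), Ccnb2 (0.63) and Cdk1 (0.78), and the A- and B-type share was 45.3% in HC against 29.5% in NC. Below 5000 UMIs, the Mki67+ share was 34.2% in HC against 37.6% in NC and the picture turned. There 6 of the 10 genes were at least 1.5-fold lower in HC, where 7.04% of 8679 genes were, with Cdk1 at 31.7 CPM against 85.2 CPM in NC (log2 ratio -1.43) and Ccna2 at 38.1 against 79.9 CPM (-1.07). Ccne2 was among the 6 but reached 5 CPM in NC alone, at 6.52 against 3.63 CPM, so the filter favoured its call. The A- and B-type share was lower in HC there, at 26.8% against 33.0% in NC. Above 10000 UMIs none of the 10 was past 1.5-fold, where 3.93% of 8686 genes were, and A- and B-type shares were 51.8% in HC and 48.3% in NC. Cdk6 was lower in HC in each of the 3 ranges, at log2 ratios of -0.37, -0.22 and -0.17 from the shallowest to the deepest. The part of cell depth in the pooled ratios was not tested.

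Ccnd2 (chr6:127125162-127152193, minus strand, of GRCm38 in GENCODE vM21) encodes cyclin D2, the D-type cyclin best known from lymphocyte activation. Its level was 281 CPM in NC against 227 CPM in HC, a log2 ratio of -0.30 (-0.33 to -0.28). It was found in 41.0% of thinned NC cells and 35.5% of thinned HC cells, and unthinned in 77.3% and 73.3%. Within the Bnip3- classes its ratio was -0.26 in Mki67- and -0.19 in Mki67+ cells, while within the Bnip3+ classes it was -0.01 (-0.13 to 0.11) and 0.04 (-0.03 to 0.12). Ccnd2 was the 1 gene of the 10 that was at least 1.5-fold lower where Mki67 was present. It stood at 219 CPM in Mki67+ against 398 CPM in Mki67- NC cells, a log2 ratio of -0.86 (-0.89 to -0.83), and at 198 against 341 CPM in HC cells, a log2 ratio of -0.78 (-0.82 to -0.74). The share of all tested genes that were 1.5-fold lower in Mki67+ cells was 4.33% in NC and 3.89% in HC. Ccnd2 also declined with the number of Mki67 UMIs in a thinned cell. It was at 350 CPM in NC cells with 0, 220 CPM with 1, 180 CPM with 2 and 163 CPM with 3 or 4, while Ccnd3 stayed between 125 and 138 CPM over the same cells.

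Ccnd3 (chr17:47505051-47599691, plus strand) encodes cyclin D3, which thymocytes need for their expansion. It had 130 CPM in NC against 146 CPM in HC, a log2 ratio of 0.17 (0.14 to 0.20), so that the pair of D-type cyclins differed between the libraries in opposite directions. Ccnd2 made up 68.4% (67.9 to 68.8) of the D-type UMIs in NC and 60.9% (60.4 to 61.3) in HC. The same order held within Mki67+ cells, at 63.1% in NC and 57.3% in HC, and within Mki67- cells, at 75.0% and 70.7%. Ccnd3 barely followed Mki67, with log2 ratios of Mki67+ over Mki67- cells of -0.05 in NC and 0.06 in HC, the sign of which changed in 2 of 10 alternatives in each library. In the 5000 to 10000 UMI range the HC over NC ratio of Ccnd3 was 0.03 (-0.02 to 0.08), while that of Ccnd2 was -0.57. Below 5000 UMIs Ccnd2 was at -0.02 (-0.08 to 0.05), an interval that holds 0, and above 10000 at -0.13, while Ccnd3 was at 0.29 and 0.27.

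Cdk4 (chr10:127063534-127067920, plus strand) and Cdk6 (chr5:3341485-3531008, plus strand) encode the kinases of the D-type cyclins. In NC Cdk4 had 164 CPM (162 to 167) and Cdk6 30.4 CPM (29.4 to 31.4). In HC they had 157 CPM (155 to 160) and 26.1 CPM (25.1 to 27.0). The log2 ratio of HC over NC for Cdk6 was -0.22 (-0.29 to -0.15). Cdk4 supplied 84.4% of the UMIs of the pair in NC and 85.8% in HC. Cdk4 was higher in Mki67+ cells, at 188 against 119 CPM in NC and 172 against 103 CPM in HC, or 1.59-fold and 1.67-fold. Cdk6 was 1.23-fold and 1.42-fold higher there, below the 1.5-fold mark, and its ratio changed sign in 2 of 10 alternatives in NC and 1 of 10 in HC. Within each of the 4 Mki67 and Bnip3 classes both kinases were lower in HC, with log2 ratios between -0.32 and -0.17 for Cdk4 and between -0.49 and -0.20 for Cdk6. Over all cells with 5000 to 10000 UMIs, of which more were Mki67+ in HC, Cdk4 was at 0.16 (0.11 to 0.21). Within Mki67+ and within Mki67- cells its ratio changed sign in 1 of 12 alternatives each, reaching 0.03 and 0.01.

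Ccne1 (chr7:38097984-38107534, minus strand) and Ccne2 (chr4:11191351-11204779, plus strand) encode the E-type cyclins, partners of Cdk2. Ccne1 had 39.5 CPM in NC against 44.6 CPM in HC, and Ccne2 had 10.4 and 11.7 CPM. Ccne1 supplied 79.1% of the E-type UMIs in NC and 79.2% in HC, the most alike of the paralogue shares. After thinning, 6.49% of NC cells and 7.45% of HC cells had a Ccne1 UMI, and 1.66% and 2.17% a Ccne2 UMI. Unthinned, the shares were 23.8% and 26.5% for Ccne1 and 7.57% and 8.61% for Ccne2. Both were higher in Mki67+ cells, Ccne1 by 1.89-fold in NC and 1.88-fold in HC, and Ccne2 by 2.48-fold and 2.65-fold.

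The E-type cyclins were highest in cells that carried Mcm6, a subunit of the helicase that opens DNA for replication, together with Top2a, a topoisomerase of late S phase to mitosis. In thinned NC cells Ccne2 was at 4.43 CPM where neither marker was present, 12.5 CPM with Mcm6 alone, 17.9 CPM with both and 10.5 CPM with Top2a alone. The HC values were 4.93, 15.8, 20.6 and 12.9 CPM, in the same order. Ccnb1 had another profile, at 37.9, 41.4, 69.5 and 115 CPM in NC and 43.0, 34.2, 75.4 and 126 CPM in HC, with its highest value where Top2a stood alone. Ccnd2 was highest where neither marker was present, at 368 CPM in NC against 308 CPM in HC. Classes with Top2a were also deeper, with median UMIs of 9285 (Top2a alone) and 10114 (both) against 6091 (neither) in NC, and all levels are per UMI.

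**Figure D3:**
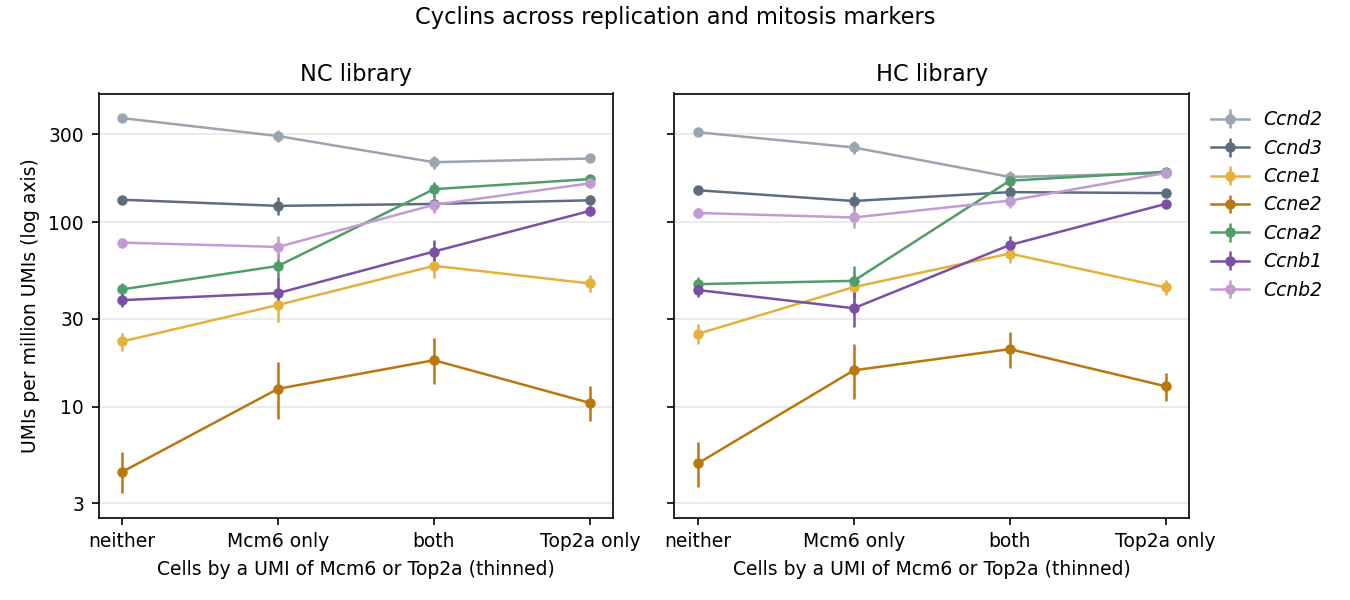
Level of the 7 cyclins (CPM on a log axis, with 95% intervals for counting error) in thinned cells of each library, split by a UMI of Mcm6, of Top2a, of both or of neither. Ccne2 peaks where both are present, at 17.9 and 20.6 CPM, and Ccnb1 where Top2a stands alone, at 115 and 126 CPM.

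Ccna2 (chr3:36564865-36572150, minus strand), Ccnb1 (chr13:100778650-100786570, minus strand), Ccnb2 (chr9:70407692-70421547, minus strand) and Cdk1 (chr10:69335146-69352938, minus strand) form the S phase to mitosis group. Cdk1 is the kinase that drives mitosis, with Ccna2 and both B-type cyclins as its partners. Of the 10 genes, these 4 had the largest differences by Mki67 presence. Ccna2 was at 162 CPM in Mki67+ against 23.9 CPM in Mki67- NC cells (6.77-fold) and at 168 against 19.2 CPM in HC cells (8.77-fold). Cdk1 was 5.92-fold higher in NC, at 170 against 28.7 CPM, and 8.68-fold higher in HC, at 169 against 19.5 CPM. Ccnb1 was 6.07-fold and 6.48-fold higher, and Ccnb2 3.53-fold and 3.02-fold. Over all thinned cells, 15.3% of NC and 18.8% of HC cells had a Ccna2 UMI, 10.6% and 13.1% a Ccnb1 UMI, 17.1% and 22.3% a Ccnb2 UMI, and 15.8% and 18.4% a Cdk1 UMI. Unthinned, these shares were 37.8% and 47.0%, 28.4% and 35.0%, 40.5% and 53.0%, and 39.1% and 45.4%.

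In all, 7 of the 10 genes were at least 1.5-fold higher in Mki67+ cells of each library, namely Ccne1, Ccne2, Ccna2, Ccnb1, Ccnb2, Cdk1 and Cdk4. Among all genes tested the same was true of 10.5% in NC and 11.7% in HC. Where Mki67 presence was read after thinning, which moves cells with few Mki67 UMIs into the Mki67- class, 5 genes passed in NC and 4 in HC. Those 4 were Ccna2, Ccnb1, Ccnb2 and Cdk1, with Ccna2 at log2 ratios of 1.53 in NC and 1.14 in HC against 2.76 and 3.13 before. The share of all genes past 1.5-fold with presence read this way was not computed. A cell without an Mki67 UMI is thus not shown to be out of cycle.

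**Figure D4:**
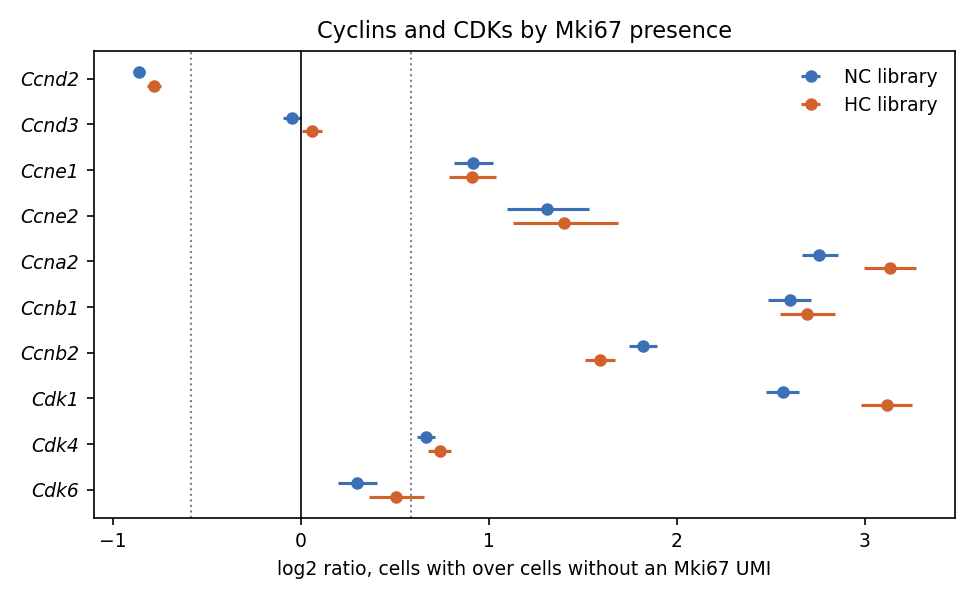
Log2 ratio of the level in cells with over cells without an Mki67 UMI, in each library, with 95% intervals for counting error; dotted lines mark 1.5-fold. Ccna2 and Cdk1 lie farthest to the right, at 2.76 and 2.56 in NC and 3.13 and 3.12 in HC, and Ccnd2 alone lies past the line on the left, at -0.86 and -0.78.

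The promoters of 3 of these genes are shown because the genes moved together with Mki67, and that of Cdk4 because it moved less. The RefSeq table for GRCm38.p6 gave promoters for 7 of the 10 genes, from 250 bases before to 50 after the start of transcription, and Ccnd2, Ccne2 and Ccna2 were not among them. Each is printed 5′ to 3′ on the strand of its gene, and capitals mark motifs found by searching both strands. The motifs were the cell cycle homology region TTTGAA, its variant TTTAAA, the CCAAT box, the E-box CACGTG and, as E2F sites, TTTGGCGC or TTTCGCGC or TTTCCCGC or TTTGCCGC.
Cdk1, chr10:69352863-69353162, minus strand: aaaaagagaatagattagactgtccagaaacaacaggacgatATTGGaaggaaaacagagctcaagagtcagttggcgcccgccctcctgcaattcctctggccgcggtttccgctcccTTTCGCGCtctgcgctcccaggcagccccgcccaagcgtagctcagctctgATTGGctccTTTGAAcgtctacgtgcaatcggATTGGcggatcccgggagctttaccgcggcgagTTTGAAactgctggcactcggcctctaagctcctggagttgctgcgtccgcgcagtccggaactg
Ccnb1, chr13:100786437-100786736, minus strand: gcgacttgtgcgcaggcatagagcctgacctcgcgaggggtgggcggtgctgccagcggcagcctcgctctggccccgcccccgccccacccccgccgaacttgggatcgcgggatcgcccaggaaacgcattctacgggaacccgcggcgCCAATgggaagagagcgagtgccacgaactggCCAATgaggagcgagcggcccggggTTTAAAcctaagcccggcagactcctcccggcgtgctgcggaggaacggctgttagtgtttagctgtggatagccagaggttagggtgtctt
Ccnb2, chr9:70421505-70421804, minus strand: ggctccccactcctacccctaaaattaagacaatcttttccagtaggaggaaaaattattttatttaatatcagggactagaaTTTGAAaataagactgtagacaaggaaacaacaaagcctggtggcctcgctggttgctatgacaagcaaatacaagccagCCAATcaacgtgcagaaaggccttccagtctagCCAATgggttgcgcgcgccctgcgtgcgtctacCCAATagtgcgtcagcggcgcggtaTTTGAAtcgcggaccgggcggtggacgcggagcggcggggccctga
Cdk4, chr10:127063285-127063584, plus strand: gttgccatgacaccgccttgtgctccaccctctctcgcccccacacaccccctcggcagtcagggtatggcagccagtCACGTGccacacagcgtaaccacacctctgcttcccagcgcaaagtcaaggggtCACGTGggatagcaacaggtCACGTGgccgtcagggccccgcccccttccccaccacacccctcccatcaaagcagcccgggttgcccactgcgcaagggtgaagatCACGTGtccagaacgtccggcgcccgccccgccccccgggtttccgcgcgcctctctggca
The first 3 promoters each held at least 2 CCAAT boxes and a homology region or its variant, as did 1027 of the 32851 promoters in the table (3.13%). The other 4 genes with a promoter, Ccnd3, Ccne1, Cdk4 and Cdk6, did not, though Ccne1 and Cdk4 were also past 1.5-fold by Mki67 presence. Cdk1 had 3 CCAAT boxes, 2 homology regions at 71 and 15 bases upstream of the start, and an E2F site, TTTCGCGC, at 131 bases upstream. Ccnb1 had 2 CCAAT boxes 32 bases apart and the variant 42 bases upstream. Ccnb2 had 3 CCAAT boxes spaced by 33 and 33 bases, a homology region 25 bases after the last of them, just past the start, and another 167 bases upstream. In the 4 promoters shown no marked motif overlapped another. Singly the motifs are common: 17.9% of promoters held TTTGAA, 13.2% TTTAAA, 37.4% a CCAAT box and 2.26% 1 of the E2F sites. Cdk4 held none of these but 4 E-boxes, a number reached by 8 promoters of the table (0.0244%), where 7.15% held at least 1. Such matches describe letters and were not tied to binding by any data here.

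Within single cells, a UMI of 1 S phase to mitosis gene was more frequent where another of them was found, though most cells with 1 of a pair below lacked the other at this depth. In thinned NC cells, 34.8% of cells with a Ccnb1 UMI also had Ccnb2, against 17.1% of all cells, and in HC 37.2% against 22.3%. Cdk1 was found in 29.3% of NC cells with Ccna2 against 13.3% of those without, and in 32.8% against 15.1% in HC. Ccne2 went with Mcm6, found in 36.6% of NC cells with Ccne2 against 20.2% of those without and in 38.8% against 22.4% in HC. Mcm6 was less frequent where Ccnb1 was found in HC, at 18.4% (16.6 to 20.3) against 23.4%. In NC it was at 19.02% (17.0 to 21.2) against 20.7%, a value that the interval holds. At this depth most cells showed 1 type of cyclin or none. In NC 26.0% of thinned cells had no cyclin UMI, 36.1% D-type alone and 8.33% B-type alone, and in HC the shares were 24.6%, 29.5% and 10.3%.

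No cell type that should lack these genes was present in number to measure the share that free RNA gives. The 15 NC cells with at least 10 UMIs of B cell markers had a median of 14145 UMIs, and 73.3% of them had an Mki67 UMI, so they could not serve. The Mki67- cells could not set a limit either, since free Mki67 RNA would move a cell out of that class. There, 5.81% of thinned NC cells and 3.36% of HC cells had a Cdk1 UMI, against 24.5% and 25.1% of Mki67+ cells. Unthinned, the shares were 13.5% and 8.83% against 61.4% and 61.6%. With Mki67 presence read after thinning, 10.2% of NC cells and 9.80% of HC cells without Mki67 had a Cdk1 UMI. The part of free RNA in these shares was thus not measured.

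Ccnb2 stood out from its paralogue Ccnb1 outside the Mki67+ cells. It made up 60.6% (59.9 to 61.2) of the B-type UMIs in NC and 62.7% (62.1 to 63.3) in HC, but 71.4% (69.5 to 73.2) and 77.6% (75.6 to 79.5) in Mki67- cells. In Mki67- cells Ccnb2 had 43.3 CPM in NC against 58.9 CPM in HC, a log2 ratio of 0.44 (0.34 to 0.55), while Ccnb1 was at 17.4 and 17.0 CPM, a ratio of -0.03 (-0.21 to 0.15). Ccnb2 was higher in HC in all 4 Mki67 and Bnip3 classes, at log2 ratios between 0.20 and 0.58. Over all cells and within either Mki67 class it was also higher in each alternative of the closing section. In cells with neither Mcm6 nor Top2a it had 77.7 CPM in NC against 112 CPM in HC. Below 5000 UMIs its ratio was 0.09 (-0.03 to 0.21), an interval that holds 0.

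Cdk1 and Ccna2 went the other way in Mki67- cells. Cdk1 had 28.7 CPM in NC against 19.5 CPM in HC, a log2 ratio of -0.55 (-0.71 to -0.40), and Ccna2 had 23.9 and 19.2 CPM, a ratio of -0.32 (-0.48 to -0.15). In Mki67+ cells the ratios were -0.00 (-0.04 to 0.03) and 0.06 (0.02 to 0.09). No gene of the 10 differed by 1.5-fold between the libraries within Mki67+ cells, where 3.31% of genes did, or within Mki67- cells, where 3.86% did. In the 4 finer classes, the 1 such gene was Cdk1 in Mki67-Bnip3+ cells, lower in HC at 20.3 against 33.8 CPM, where 11% of genes were lower by that much. The sign of these Mki67- ratios turned when Mki67 presence was read after thinning, to 0.20 for Cdk1 and 0.35 for Ccna2, and in cells with 5000 to 10000 UMIs, to 0.07 and 0.28. Mki67+ cells carried 543 CPM of Mki67 in NC against 657 CPM in HC, and the part of this in which cells fall into the Mki67- class was not tested.

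**Figure D5:**
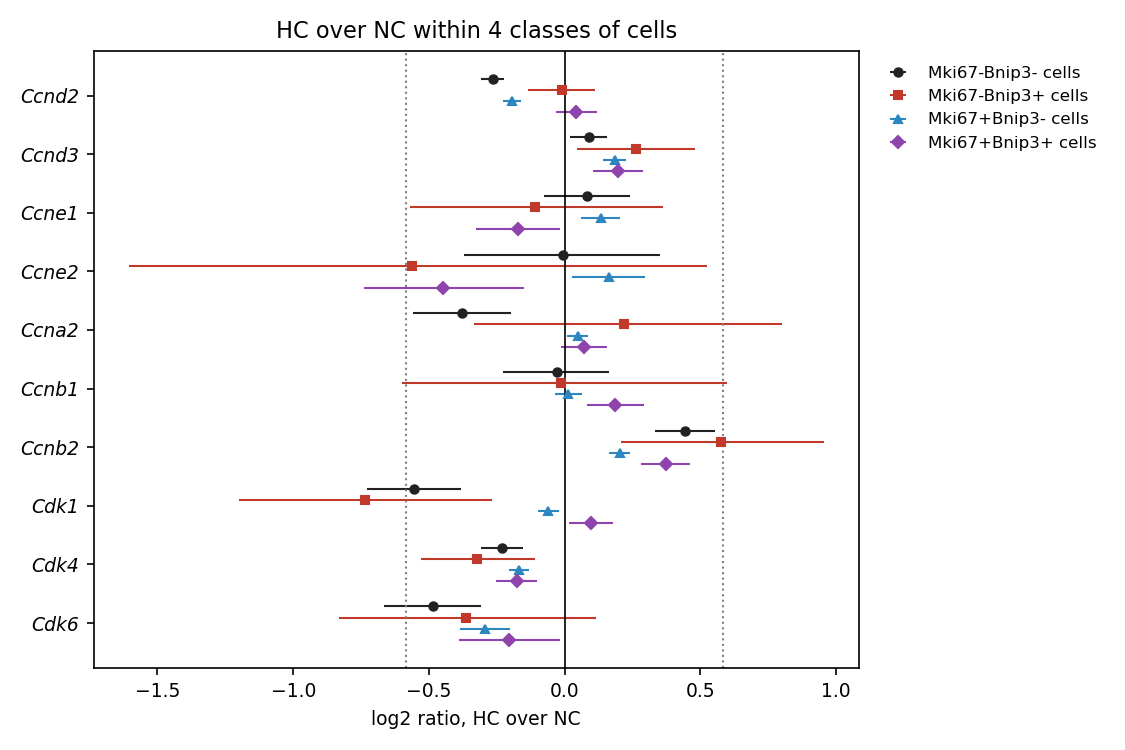
Log2 ratio of HC over NC for each gene within the 4 classes by presence of Mki67 and Bnip3, with 95% intervals for counting error; dotted lines mark 1.5-fold. Ccnb2 lies right of 0 in all 4 classes (0.20 to 0.58), Cdk4 left of 0 in all 4 (-0.32 to -0.17), and Cdk1 is past the line in Mki67-Bnip3+ cells (-0.74).

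Presence of Bnip3 went with small differences only. None of the 10 genes was 1.5-fold higher or lower in Bnip3+ than in Bnip3- cells of either library, where 0.749% of 8676 genes differed by that much in NC and 1.63% of 8672 in HC. Cdk1 had log2 ratios of Bnip3+ over Bnip3- cells of 0.32 (0.25 to 0.40) in NC and 0.33 (0.28 to 0.37) in HC. Those of Ccnb1 were 0.28 and 0.30 and those of Ccna2 0.27 and 0.16. Bnip3+ cells also more often carried Mki67, 665 of 944 against 6620 of 12697 Bnip3- cells in NC. In HC it was 2279 of 2962 against 7146 of 10655. Bnip3+ cells were also the deeper ones, and the part of depth in this was not tested. Within Mki67+ cells the ratio of Cdk1 was 0.04 (-0.04 to 0.12) in NC and 0.20 (0.15 to 0.25) in HC, and that of Ccna2 -0.00 and 0.02.

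For the kinases of the D-type cyclins, the ratio of Bnip3+ over Bnip3- cells was above 0 in both Mki67 classes of both libraries, but not in each alternative. For Cdk4 the log2 ratios within Mki67+ cells were 0.21 (0.14 to 0.28) in NC and 0.20 (0.15 to 0.25) in HC, and within Mki67- cells 0.28 (0.11 to 0.45) and 0.19 (0.05 to 0.33). For Cdk6 they were 0.19 and 0.28 within Mki67+ cells, and 0.17 (-0.23 to 0.55) and 0.29 (-0.03 to 0.61) within Mki67- cells. These values moved with depth. Among cells with 5000 to 10000 UMIs the Cdk4 ratio over all cells was 0.11 in NC and 0.01 in HC, and the Cdk6 ratio -0.25 and 0.05. In Mki67- NC cells the sign turned in 2 of 10 alternatives for Cdk4, down to -0.64, and in 3 of 10 for Cdk6, down to -0.87. In Mki67+ cells that of Cdk6 turned in 2 of 10 in NC, down to -0.26, and in 1 of 10 in HC (-0.03).

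Ccne2 and Ccnd2 differed by Bnip3 in opposite directions in the 2 libraries, a difference that was not tested. The log2 ratio of Bnip3+ over Bnip3- cells for Ccne2 was 0.45 (0.19 to 0.69) in NC and -0.25 (-0.43 to -0.07) in HC. Ccne1 was at 0.30 (0.16 to 0.43) in NC and -0.07 (-0.16 to 0.02) in HC, where the interval holds 0. For Ccnd2 it was -0.29 (-0.34 to -0.23) in NC and 0.04 (0.00 to 0.08) in HC. The D-type share of the cyclin UMIs was 47.5% in Bnip3+ against 54.3% in Bnip3- NC cells, and 45.1% against 46.4% in HC. Within each Mki67 class the shares by Bnip3 lay close, 41.7% against 42.0% in Mki67+ NC cells and 40.9% against 39.6% in Mki67+ HC cells.

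For each gene, the transcripts whose counts most resembled it across thinned cells were ranked by Pearson's r on log counts, by the lower r of the 2 libraries, over 13508 NC and 13523 HC cells that share library and depth. Hmgb2, a chromatin protein, came first for Ccna2 (0.32 in NC, 0.29 in HC) and for Ccnb2 (0.32 and 0.27). Top2a came first for Cdk1 (0.30 and 0.31), and Ube2c, the ubiquitin-conjugating enzyme of the anaphase-promoting complex, for Ccnb1 (0.30 and 0.27). Cenpf and Cenpa, both of the kinetochore and centromere, came second for Ccnb1 and Ccnb2. For Ccne1 the first were Pclaf (0.11 and 0.11), a partner of the replication clamp, and Hist1h1b, a linker histone. Those of Cdk4 were Ptma (0.16 and 0.14) and Stmn1. For Ccne2 (Pclaf and Pcna), Ccnd3 (Malat1 and Usp24) and Cdk6 (Ncl and Hsp90ab1) the highest r was 0.09 or less, too weak in such sparse counts to be read.

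Around these 10 genes, the regulators of CDK activity were compared between the libraries. All 6 genes of the CDC25 phosphatases, WEE1 kinases and Chek1 were above 0 on the log2 scale of HC over NC, with 1 past 1.5-fold, and their median was 0.23. Of all 8704 genes 43.8% were above 0 and 1.93% higher by 1.5-fold, with a median of -0.03. That 1 was Cdc25b, a phosphatase that activates CDKs, at 76.4 CPM in NC against 123 CPM in HC (0.68). Cdc25c, which acts on Cdk1 at mitosis, and Pkmyt1, which inhibits it, followed at 0.48 and 0.31. A list of 12 genes around the destruction of cyclins was above 0 throughout as well, none past 1.5-fold, with a median of 0.24. Besides ubiquitin ligase parts it holds Fbxo5, Bub1b and Mad2l1, which restrain the anaphase-promoting complex, and Espl1, which cleaves cohesin. Espl1, the separase, was at 0.50, Fzr1, an activator of the anaphase-promoting complex, at 0.39 and Bub1b, a checkpoint kinase, at 0.38. Within Mki67+ cells the medians were 0.09 and 0.11, with 4 of 6 and 8 of 12 genes above 0, where 45.4% of all genes were above 0. Within Mki67- cells they were -0.05 and -0.09, with 2 of 5 and 4 of 11 tested genes above 0, where 37.2% of all genes were. There 1 gene of the first list was 1.5-fold higher in HC, where 1.94% of all genes were.

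Of the E2F factors and their DP partners, 9 of 10 passed the 5 CPM filter, 6 were above 0, and 1 was past 1.5-fold, against 43.8% and 3.4% of all genes. That was E2f2, an activator of S phase genes, at 57.0 CPM in NC against 90.1 CPM in HC (0.66), with E2f7 at 0.43 and Tfdp2 at 0.32. Rb1, Rbl1 and Rbl2, the pocket proteins that hold E2F back, were at 0.21, 0.21 and 0.13. Within Mki67+ cells none of either list differed by 1.5-fold, and the medians were 0.06 for the E2F list and 0.14 for the pocket proteins. Within Mki67- cells none did either, with medians of -0.25 and -0.08. Of all genes 3.31% in Mki67+ and 3.86% in Mki67- cells differed by that much. Of the CDK inhibitors, 4 of 7 passed the filter and none differed by 1.5-fold, where 3.4% of all genes did. Of the 4, 3 were above 0, as were 43.8% of all genes. Within Mki67+ cells no inhibitor differed by 1.5-fold between the libraries. Within Mki67- cells 1 of 4 was that much lower in HC, where 1.92% of all genes were. Cdkn1a (p21) had 9.78 CPM in NC against 13.9 CPM in HC (0.51), Cdkn2d (p19) at 145 and 188 CPM (0.38) and Cdkn1b (p27) at 100 and 108 CPM (0.11). Cdkn1a was also the 1 inhibitor past 1.5-fold in Bnip3+ cells, with log2 ratios over Bnip3- cells of 0.65 in NC and 0.91 in HC. Of all genes 0.484% and 1.48% were that much higher. Within Mki67+ cells 1 inhibitor was that much higher in Bnip3+ cells of HC and 0 of NC, where 1.19% and 0.347% of genes were. Within Mki67- cells 0 were in either library, where 3.23% of all genes were in HC and 3.95% in NC. Of the other cyclins and CDKs, 14 of 17 passed and none differed by 1.5-fold, with a median of -0.06. Among them Ccnf, the cyclin of an SCF ubiquitin ligase, was at 0.38, Ccng2 at 0.37 and Cdk7, the CDK-activating kinase, at -0.28.

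Presence of Mki67 divided the same lists more sharply. Counted were genes at 5 CPM or more in both Mki67 classes of a library. Left out were Cdc25c, Espl1, E2f7 and E2f8 in both libraries and Ccnf in HC, named here because they reached 5 CPM in Mki67+ cells alone, which favours a call. Of the CDC25, WEE1 and checkpoint genes, 5 of 5 were at least 1.5-fold higher in Mki67+ cells in each library, as were 10 of 11 genes around cyclin destruction and 4 of 7 E2F factors. The 3 pocket proteins gave 2 in each library, the 4 inhibitors 2 in NC and 3 in HC, and the other cyclins and CDKs 2 of 14 in NC and 2 of 13 in HC. The 10 cyclin and CDK genes followed here were at 5 CPM or more in both classes. The background of 10.5% in NC and 11.7% in HC is over all genes at 5 CPM or more in either class, a looser filter. With the filter on the level over both classes summed it was 10.3% and 11.7%. The share among genes at 5 CPM or more in both classes was not computed.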

How the data were processed

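Raw UMI counts of each gene in each barcode were deposited for 1 NC and 1 HC library made with the 10x Genomics 3′ kit, version 3.1, per the labels. The matrices come from Cell Ranger 6.1.2, per the file headers, though Cell Ranger 5.0.0 stands in the submitters' processing notes beside Seurat 3.2.3 and mm10. How barcodes were called is not given in the sources used.

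The 10 genes and the lists around them were chosen with earlier results of these data known. Counts were summed over kept cells and scaled to CPM with exact Poisson intervals. Shares of cells carry Clopper-Pearson intervals, and log2 ratios exact binomial intervals given the summed count, all at 95%. UMIs limit duplicate reads but not cell-to-cell variation, and intervals cover counting error only. Cells are not replicates, so no test was run. Genes with at least 5 CPM in either sum were compared, and a ratio of 1.5-fold marked a difference. Thinning drew 2000 UMIs per cell without replacement. No doublet caller was run. Of the kept barcodes, 49 occurred in both libraries. Of the steps, the 1.5-fold calls and the intervals of log2 ratios were tested, on simulated counts summed per library. Alternatives to the scaling, filters, thinning, fold mark, class definition and depth of cells were run.

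Besides the 10 genes, the text names the 2 genes most like each (those of Ccnd2 are not reported here), and up to 3 genes per list with the largest ratio of HC over NC in size. Other genes define cell classes or lists. Positions came from GENCODE vM21. Size factors from edgeR 4.0.16 (TMM) and DESeq2 1.42.0 (median of ratios) served as other scalings only. The versions were R 4.3.3, Python 3.11.15, scipy 1.17.1, numpy 2.4.6, matplotlib 3.10.9 and pandas 2.3.3.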

Additional observations from a re-analysis of the deposited data

Results flagged for a closer look

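For 4 genes a contrast ran in opposite directions in the 2 libraries or in the 2 Mki67 classes, each with a counting interval that did not hold 0. None of these differences was tested, since there was 1 library per group. The log2 ratio of Bnip3+ over Bnip3- cells for Ccnd2 was -0.29 in NC and 0.040 in HC, and within Mki67+ cells -0.13 in NC and 0.10 in HC. That of Ccne2 was 0.45 in NC and -0.25 in HC. That of Ccne1 within Mki67+ cells was 0.16 in NC and -0.15 in HC. For Ccna2, the log2 ratio of HC over NC was 0.055 in Mki67+ cells and -0.32 in Mki67- cells, and these changed sign in 1 and 2 of 12 alternatives. The sign also turned for Ccnd2 in HC in 1 of 10 (-0.0077) and in Mki67+ NC cells in 2 of 10, and for Ccne1 in Mki67+ HC cells in 1 of 10.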

How the results depend on the processing

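No paired analysis was possible because each group had 1 library, and no replicate could be left out for the same reason. Of 95 alternative values for the counts of genes past 1.5-fold and for the A- and B-type difference, 84 stayed within 1.5 times the count or within the counting interval. With the looser of the other fold marks, 1 of the 10 genes was higher in HC, 1 in Bnip3+ NC cells and 1 in Bnip3+ HC cells, where 0 were at 1.5-fold. Thinned counts gave 1 in Bnip3+ NC cells. With Mki67 presence read after thinning, 4 were higher in Mki67+ HC cells instead of 7. The shares of all genes past the mark under these settings were not computed, so these counts have no background. In cells with 5000 to 10000 UMIs, an alternative added after the data were seen, 5 were higher in HC, where 5.91% of all genes were. The A- and B-type difference of 7.22 points became 8.47 with at most 5% mitochondrial UMIs, 7.83 without cells above the 98th percentile of UMIs, 8.06 with thinned counts, 3.08 with HC classes weighted as in NC, and 15.8 in cells with 5000 to 10000 UMIs. Below 5000 UMIs, which was not among these alternatives, the share was lower in HC, at 26.8% against 33.0%. Of 1149 alternative log2 ratios of single genes, 289 left the counting interval and 126 changed sign. Of 68 alternative shares by cyclin type, 42 left it. Over the alternatives, HC over NC ranged from 0.26 to 0.63 for Ccnb2, from -0.57 to -0.21 for Ccnd2, from 0.03 to 0.19 for Ccnd3, from -0.34 to -0.21 for Cdk6 and from -0.07 to 0.78 for Cdk1. These ranges leave out cells under 5000 UMIs taken alone, where Cdk1 was at -1.43 and Ccnd2 at -0.02, and cells over 10000 taken alone. The causes of these moves were not tested. TMM and median-of-ratios scaling shifted all ratios by 0.015 and -0.0010. For Ccne2 in Mki67- NC cells by Bnip3 no ratio could be had with presence set at 2 UMIs. The depth limits Ccne2 most, with 1209 UMIs in NC and 1339 in HC.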
